A study of Danio rerio with 12 samples.

Results

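The comparison described here asked how loss of both zebrafish csf1r genes changed the transcriptome of embryonic macrophages at 50 h post-fertilisation (hpf). Its members were the 6 libraries labelled 50 hpf, of 12 in the series, and all genes of these libraries were examined. The csf1rDM libraries came from fish homozygous for csf1ra j4e1 and csf1rb re01 that carried the tg(mpeg-GFP) reporter, and the control libraries from wildtype tg(mpeg-GFP) fish. Each genotype had 3 libraries of total RNA from mpeg-GFP+ cells, sorted directly into Trizol after dissociation on ice. A replicate was a pool of 70 embryos for csf1rDM and of 35 embryos for control, so that embryo number and genotype cannot be told apart. Per the methods of the study, controls were wild-type fish with the reporter constructs only, and embryos of all groups were kept with phenylthiourea against pigmentation. Controls were not stated to be siblings of the mutants, so genotype and the genetic background of the fish line cannot be told apart. No source stated whether pools came from separate clutches, and the p-values measure the spread between these pools. The 6 libraries of the same genotypes at 28 hpf entered the same fit. They therefore share in the low-count filter, the scaling and the estimate of spread behind the 50 hpf p-values. Apart from this, they are used to place the 50 hpf values.

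CSF1R is a receptor tyrosine kinase that binds the ligands CSF1 and IL-34 and drives survival, proliferation and differentiation of mononuclear phagocytes through, among others, the ERK and PI3 kinase pathways. Zebrafish carry a pair of paralogues, csf1ra and csf1rb. At this age most macrophages are primitive macrophages that arose on the yolk and are spreading through the tissues, where those of the brain become microglia.

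The values are deposited read counts per gene, given below as CPM, which are counts scaled to a common library size with TMM factors. Totals were 14820285 to 20261650 counts in control and 10675567 to 13159378 counts in csf1rDM, and 16429 genes passed a filter on low counts. The thresholds were an absolute log2 fold change above 1 with an adjusted p under 0.01 in the quasi-likelihood F test of edgeR, with Benjamini-Hochberg adjustment over all 16429 genes. Library csf1rDM replicate 1 stood apart by 26548 genes with a count, against 18042 and 20272 in the other csf1rDM libraries and 20741 to 22369 in control. Of the macrophage markers, mpeg1, irf8 and lcp1 were present in all libraries, and cd74a, the invariant chain of class II MHC, lay at 3.75, 3.88 and 4.86 CPM in control and 0.0881, 0 and 0.0741 CPM in csf1rDM. The most abundant of 3 IDs named mpeg1, a perforin-like gene of macrophages, lay at 3523, 3715 and 3628 CPM in control and 4413, 4989 and 4498 CPM in csf1rDM, the transcription factor irf8 at 330.4, 373 and 346 CPM in control and 363, 381 and 331 CPM in csf1rDM, and the leukocyte actin bundler lcp1 at 1669, 1907 and 1953 CPM in control and 1705, 2052 and 1683 CPM in csf1rDM. The log2 fold change of the most abundant mpeg1 ID was 0.36 (adjusted p = 0.000263 by edgeR), under the fold limit. Also higher but under it were the most abundant mfap4 ID (0.89), marco (0.63), spi1 (0.49) and ptprc (0.41), each at an adjusted p under 0.01. Another abundant mfap4 ID was lower (-0.42, adjusted p = 0.000628). The markers csf1ra, spi1a, coro1a and grna lay at -0.08 to 0.13. Markers of other cells were summed per library. The 21 skeletal muscle symbols summed to 5577, 4981 and 12.7 CPM in control and to 24.1, 17.3 and 7273 CPM in csf1rDM, so that 2 control libraries and 1 csf1rDM library held muscle transcripts, and 0 of the 17 tested muscle genes passed in either direction by edgeR or DESeq2 (0 at an unadjusted p under 0.05). The part of muscle RNA in other genes was examined by adding this sum as a covariate, after which 850 genes passed. Of these, 790 had also passed without the covariate, which is 90.3% of the genes of the main fit. The epithelial list summed to 1121 to 1319 CPM in control and 1439 to 1763 CPM in csf1rDM, the neutrophil list to 476 to 562 CPM in control and 664 to 789 CPM in csf1rDM and the endothelial list to 379 to 413 CPM in control and 287 to 313 CPM in csf1rDM. The lymphoid, mast and eosinophil list summed to 47.3 to 56.7 CPM in control and 43.5 to 59.3 CPM in csf1rDM, the fibroblast list to 309 to 564 CPM in control and 247 to 433 CPM in csf1rDM, the neural list to 138 to 155 CPM in control and 58.8 to 180.2 CPM in csf1rDM, the pigment list to 57.3 to 102 CPM in control and 23.8 to 47.0 CPM in csf1rDM, the erythroid list to 9.04 to 65.6 CPM in control and 9.85 to 85.3 CPM in csf1rDM and the yolk and liver list to 6.01 to 12.01 CPM in control and 9.56 to 35.7 CPM in csf1rDM. Single markers of a list differed in level. Much of the control pigment sum was gch2, at 73.7, 29.85 and 71.1 CPM in control and 5.20, 7.32 and 1.41 CPM in csf1rDM. Its log2 fold change was -3.66 (adjusted p = 0.0417 by edgeR), while 6 of the 10 tested pigment genes had a positive one. Much of the control neural sum was 1 ID named stmn1, at 67.01, 73.15 and 69.35 CPM in control and 17.89, 27.74 and 30.23 CPM in csf1rDM. It was the 1 of 17 tested neural genes that passed (log2 fold change -1.46, adjusted p = 0.000212 by edgeR). The neural genes elavl3 and tubb5 were highest in csf1rDM replicate 3, at 29.34 and 44.38 CPM, a library that also held muscle transcripts. Of red cell genes, gata1a reached at most 0.88 CPM and hbae1.1 lay at 0 CPM, but hbae3 reached 24.28 CPM and alas2 11.42 CPM. Of endothelial genes, kdrl, cdh5 and egfl7 reached at most 1.196, 3.437 and 1.531 CPM, but tie1 lay at 50.76 to 77.02 CPM. The low values of gata1a and kdrl therefore do not show that RNA of these cells was absent. The neutrophil gene lyz lay at 7.69, 17.2 and 13.6 CPM in control and 15.3, 9.41 and 13.6 CPM in csf1rDM. Of 7 tested yolk and liver genes 2 rose and 0 fell (28.6% higher, against 2.29% of all tested genes). Among them, tfa lay at 0.438, 0 and 0 CPM in control and 8.64, 5.31 and 1.78 CPM in csf1rDM. Its log2 fold change was 5.18 (adjusted p = 0.000681 by edgeR), and its call was lost in the fit of 50 hpf alone. The part of yolk and liver RNA in other genes was not tested.

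**Figure D1:**
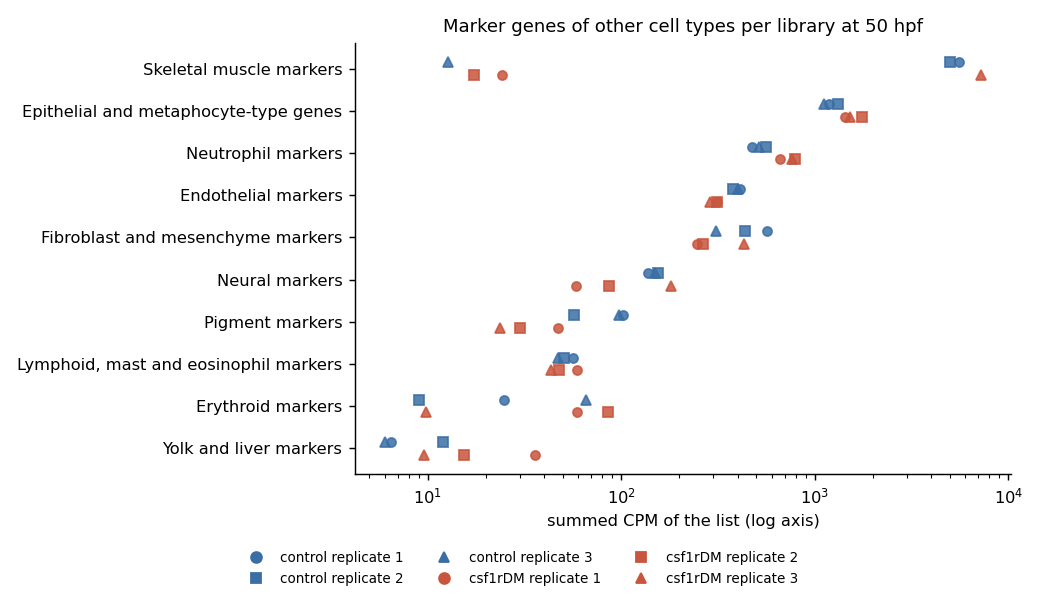
Summed CPM of marker genes of 10 kinds of other cells (horizontal log axis) in each of the 6 libraries of 50 hpf, with colour for genotype and symbol shape for replicate. Muscle markers split the libraries within each genotype, at 4981 to 7273 CPM in 3 libraries and 12.7 to 24.1 CPM in the other 3, while epithelial and neutrophil sums were higher in all csf1rDM libraries. The neutrophil sum includes csf3r. The neutrophil markers npsn and mmp13a were lower in all csf1rDM libraries but did not pass (log2 fold changes -3.22 and -2.03), and lyz was at -0.01.

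Between genotypes 875 of 16429 genes passed (5.33%), 376 higher in csf1rDM (2.29%) and 499 lower (3.04%). The counts of list members given below are to be read against these shares. The median log2 fold change over all tested genes was -0.02, with 5% of genes under -1.42 and 5% above 1.59. An unadjusted p under 0.05 in the edgeR test was common, in 5274 of 16429 genes. Counts of list members at that level are to be read against this number. Among the genes that passed, the median log2 fold change was 1.58 for the higher and -1.51 for the lower genes, and 40 genes rose and 44 fell by more than 4 on the log2 scale. The higher genes together made up 12578 to 12797 CPM in control and 32211 to 35669 CPM in csf1rDM, and the lower genes 24854 to 26464 CPM in control and 8453 to 9826 CPM in csf1rDM. These sums describe the genes the test selected. All 875 genes that passed had CPM values that did not overlap between genotypes, and so did 35.9% of all tested genes. Lack of overlap in a gene that passed therefore adds no support to its call. In bulk libraries, fewer cells of a kind and less RNA per cell cannot be told apart. Without csf1rDM replicate 1 the count was 797, 310 higher and 487 lower, and with control replicate 2 or 3 left out it was 615. These 3 fits kept 78.4%, 67.5% and 67.7% of the 875 genes.

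The mutated genes were read first. Transcripts of csf1ra (ENSDARG00000102986) were present at 445, 349.7 and 416 CPM in control and 339, 405 and 399 CPM in csf1rDM (log2 fold change -0.08 ± 0.11 SE, adjusted p = 0.662), and the groups overlapped. The j4e1 allele changes an amino acid, so its transcript level checks no label. Transcripts of csf1rb (ENSDARG00000053624) were at 441, 257 and 295 CPM in control and 193, 153 and 214 CPM in csf1rDM (log2 fold change -0.83 ± 0.21 SE, adjusted p = 0.014), lower in all csf1rDM libraries but not past the thresholds.

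A broad change was a fall of the genes that copy DNA. Of 54 tested genes of the replication origin and fork, 40 fell and 0 rose, all 54 had a negative log2 fold change, and the list median was -1.36 against -0.02 over all genes. In a fit of the 6 libraries of 50 hpf alone 30 fell. DNA replication starts where the origin recognition complex loads the MCM2-7 helicase, and 5 of 6 subunits of the former and 6 of 6 of the latter fell. The mcm2 transcript lay at 275, 295 and 362 CPM in control and 80.1, 84.9 and 111 CPM in csf1rDM (ENSDARG00000102798, log2 fold change -1.76 ± 0.14 SE, adjusted p = 6.68e-06). The 6 helicase subunits fell within a narrow range of log2 fold changes, -1.76 to -1.43. The licensing factor cdc6 lay at 33.1, 51.7 and 51.4 CPM in control and 8.28, 12.3 and 13.04 CPM in csf1rDM (log2 fold change -2.01 ± 0.20 SE, adjusted p = 3.27e-05). No csf1rDM library reached the lowest control library for either gene, as in every gene that passed as lower.

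The same held downstream of licensing. All 4 GINS subunits, which activate the helicase, fell, with log2 fold changes of -2.71 to -1.02. Of 12 subunits of the replicative polymerases and primase 7 fell, among them pold2 (-1.82) and pold1 (-1.58), and prim1 was at -1.32 with an adjusted p of 0.0101. The prim1 gene passed under 7 of 15 alternatives. The subunit pold4, which is not in the list of 54 genes, was at 0.20 with a mean of 0.956 CPM. All 3 RPA subunits, which coat single-stranded DNA, and 3 of 5 RFC subunits, which load the sliding clamp, also fell. The clamp itself, pcna, was the most abundant member at 538, 703 and 726 CPM in control and 199, 233 and 217 CPM in csf1rDM (ENSDARG00000054155, log2 fold change -1.60 ± 0.12 SE, adjusted p = 4.15e-06). The fork factor wdhd1 lay at 34.4, 39.6 and 36.7 CPM in control and 5.73, 11.7 and 10.7 CPM in csf1rDM (log2 fold change -1.97 ± 0.21 SE, adjusted p = 4.85e-05). In both genes the lowest control library was more than 2 times the highest csf1rDM library.

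Enzymes that supply deoxynucleotides fell with the replication genes, 9 of 12 tested IDs, with a median of -1.57. Ribonucleotide reductase turns ribonucleotides into deoxyribonucleotides, and its large subunit rrm1 lay at 369.6, 405 and 435 CPM in control and 134, 132 and 160.5 CPM in csf1rDM (ENSDARG00000014017, log2 fold change -1.505 ± 0.09 SE, adjusted p = 9.95e-07). Thymidine kinase tk1 lay at 31.4, 31.2 and 29.6 CPM in control and 5.55, 5.71 and 7.56 CPM in csf1rDM (log2 fold change -2.29 ± 0.18 SE, adjusted p = 4.15e-06) and deoxycytidine kinase dck at 16.0, 21.1 and 20.2 CPM in control and 2.29, 4.58 and 5.26 CPM in csf1rDM (log2 fold change -2.23 ± 0.25 SE, adjusted p = 6.36e-05). Both are salvage enzymes. The folate-recycling enzyme dhfr (-1.72) and thymidylate synthase tyms (-1.63) of the de novo route fell as well. Of 31 genes that package new DNA or copy its methylation, 10 fell and 0 rose, with a median of -0.86. Among these, the histone chaperones chaf1b (-1.70) and nasp (-1.504), the histone methyltransferase suv39h1 (-1.82) and uhrf1 (-1.30), which guides maintenance methylation, fell. Of 41 genes of homologous recombination and Fanconi repair 11 fell. That count was 7 without control replicate 2, 6 without control replicate 3 and 3 in a fit of the 6 libraries of 50 hpf alone.

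Cyclins are given by the phase they act in. All 8 tested E-, A- and B-type cyclins and their kinases cdk1 and cdk2, which drive S phase and mitosis, fell, with log2 fold changes of -1.77 to -1.04, but the call of cdk2 (-1.04) was lost under both other scalings, in the fit of 50 hpf alone and without csf1rDM replicate 2 or 3. Of 5 D-type cyclins and partner kinases, which act in G1 and respond to growth factors, 0 passed (2 at an adjusted p under 0.05 by edgeR). The D-type cyclin ccnd1 was at 354, 354 and 376 CPM in control and 178, 229 and 187 CPM in csf1rDM (log2 fold change -0.87 ± 0.11 SE, adjusted p = 0.000167), and the more abundant of 2 IDs named ccnd2 at 56.3, 58.5 and 52.2 CPM in control and 95.7, 112 and 104 CPM in csf1rDM (log2 fold change 0.90 ± 0.11 SE, adjusted p = 0.000109). These 2 genes did not overlap between genotypes and lay on opposite sides of 0. The S-phase cyclin ccne2 lay at 17.6, 21.2 and 19.8 CPM in control and 7.14, 7.24 and 2.96 CPM in csf1rDM (log2 fold change -1.77 ± 0.28 SE, adjusted p = 0.000742) and the mitotic kinase cdk1 at 114, 120.2 and 127 CPM in control and 38.3, 37.1 and 52.5 CPM in csf1rDM (log2 fold change -1.496 ± 0.16 SE, adjusted p = 5.06e-05). Over the whole list of cyclins, kinases and mitotic entry genes 22 of 35 fell (15 in the fit of 50 hpf alone) and 0 rose. The proliferation marker mki67 did not pass, at 290.3, 199.8 and 178 CPM in control and 119.8, 105 and 187 CPM in csf1rDM (log2 fold change -0.69 ± 0.21 SE, adjusted p = 0.0362), with csf1rDM replicate 3 inside the control range.

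Mitotic genes fell as well. Of 36 kinetochore and checkpoint genes 16 fell (10 in a fit of the 6 libraries of 50 hpf alone), and of 35 spindle and cytokinesis genes 16 fell. The list medians were -1.03 and -0.96. The outer kinetochore subunit ndc80 lay at 44.9, 40.3 and 44.7 CPM in control and 12.3, 18.8 and 16.0 CPM in csf1rDM (log2 fold change -1.46 ± 0.18 SE, adjusted p = 0.000115), the checkpoint protein mad2l1 at 30.1, 33.1 and 30.0 CPM in control and 10.2, 9.09 and 13.4 CPM in csf1rDM (log2 fold change -1.51 ± 0.17 SE, adjusted p = 6.01e-05) and the central spindle bundler prc1 at 56.9, 53.4 and 56.3 CPM in control and 21.2, 18.01 and 21.9 CPM in csf1rDM (log2 fold change -1.45 ± 0.15 SE, adjusted p = 3.13e-05). The groups were apart in each of these genes, as in all genes that passed. Of the complexes that shape chromosomes, 5 of 8 condensin subunits, which compact mitotic chromosomes, fell, with a median of -1.08. For comparison, 0 of 13 tested cohesin genes passed (2 at an adjusted p under 0.05 by edgeR) and their median was 0.02. Cohesin holds sister chromatids and also folds interphase chromosomes. This group of 13 does not hold the cohesion genes cdca5 (-1.58) and sgo1 (-1.15), which passed as lower, so the contrast depends on the grouping. The sgo1 call was lost with any library but control replicate 2 left out. The condensin subunit ncapd3 lay at 38.9, 31.7 and 39.7 CPM in control and 9.61, 18.6 and 9.26 CPM in csf1rDM (log2 fold change -1.56 ± 0.23 SE, adjusted p = 0.000509). The list that joins condensin and cohesin went from 7 to 3 calls without csf1rDM replicate 2, to 4 without control replicate 1 or 3, and to 4 in the fit of 50 hpf alone.

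Of the transcription factors that govern these programmes, the atypical E2F repressors e2f7 (-1.67) and e2f8 (-1.41) and the G2/M activator mybl2 (-1.501) fell, with mybl2 at 38.3, 40.4 and 42.7 CPM in control and 13.2, 13.8 and 15.8 CPM in csf1rDM (log2 fold change -1.501 ± 0.12 SE, adjusted p = 6.95e-06). With mxd3, whose call was lost without any one library except csf1rDM replicate 3 (log2 fold changes -1.22 to -0.99), they were the 4 of 32 E2F, MYB, FOXM1 and MYC family genes that passed. Of 35 CDK inhibitors and p53 targets 0 passed in either direction by edgeR, 16 had an unadjusted p under 0.05, and DESeq2 called 0 higher and 2 lower. Their median was -0.12. The most abundant of them, ccng1, was at -0.12 and the antiproliferative factor btg1 at 0.51.

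**Figure D2:**
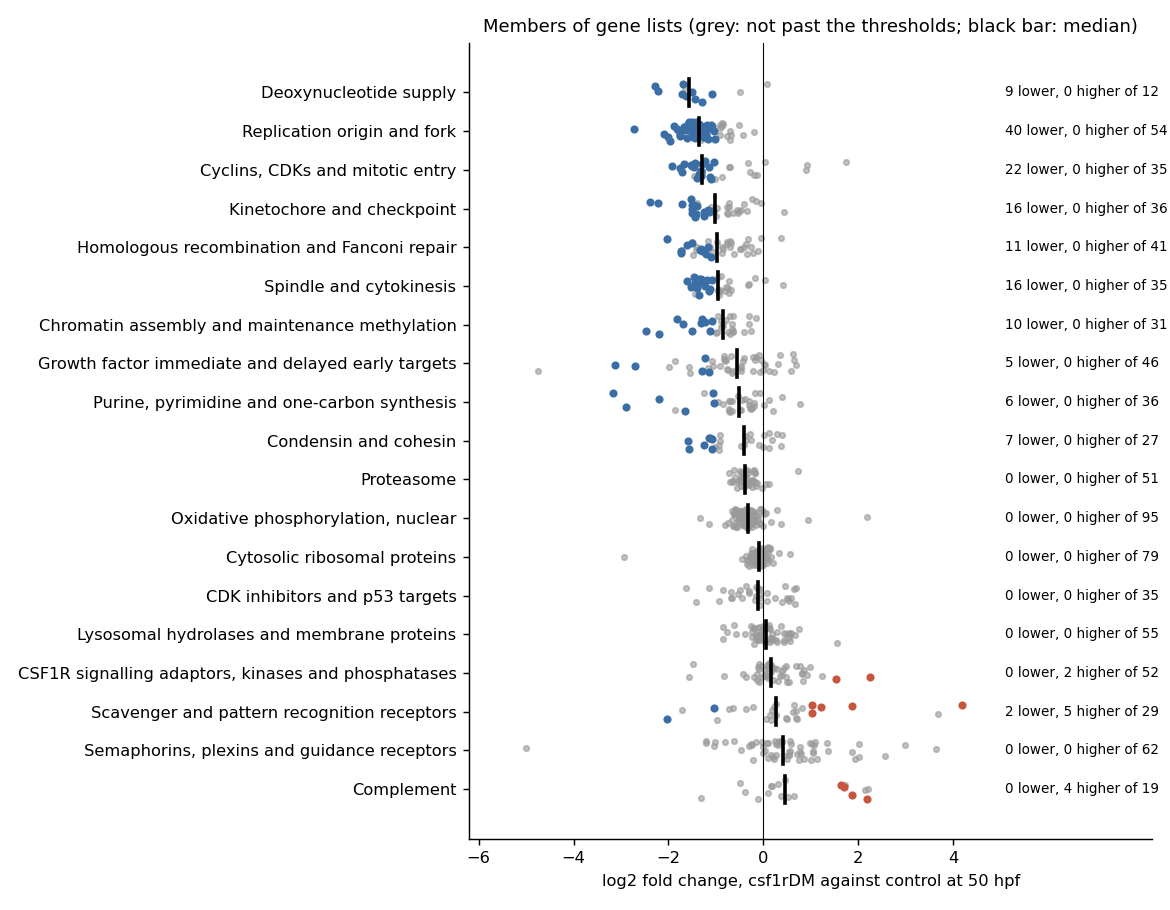
Log2 fold change (horizontal axis) of every tested member of 19 gene lists, with a black bar at the list median, blue and red points for members past the thresholds and the counts at the right. Replication, deoxynucleotide and cyclin lists sit left of -1 by their medians, while ribosomal proteins and lysosomal genes centre on 0 and complement genes lie to the right.

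Genes of the receptor's signalling chain are given from the membrane inwards. Of 52 adaptors, kinases and phosphatases of CSF1R signalling 2 rose and 0 fell, with a median of 0.16. Of 13 tested genes of the RAS, RAF, MEK and ERK cascade 0 passed (3 at an adjusted p under 0.05 by edgeR), and the ERK gene mapk3 lay at 0.10. Among 46 immediate and delayed early targets of growth factor signalling 5 fell and 0 rose. The PEA3-type ETS factors etv4 and etv5b, which in many vertebrate tissues are induced by receptor tyrosine kinases, had the strongest falls. The etv4 transcript lay at 113, 139.9 and 147 CPM in control and 23.3, 16.2 and 21.9 CPM in csf1rDM (ENSDARG00000018303, log2 fold change -2.71 ± 0.18 SE, adjusted p = 1.27e-06) and etv5b at 31.6, 35.9 and 30.3 CPM in control and 3.35, 5.47 and 2.44 CPM in csf1rDM (log2 fold change -3.12 ± 0.38 SE, adjusted p = 0.000123). The groups lay far apart in both genes.

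The third measured PEA3-type factor of appreciable level, etv5a, was at 90.3, 82.1 and 85.7 CPM in control and 40.7, 65.7 and 54.9 CPM in csf1rDM (log2 fold change -0.68 ± 0.18 SE, adjusted p = 0.021) and did not pass. Among feedback inhibitors of the ERK pathway 1 of 10 tested passed: spry4, which lies 10 genes from csf1rb in the RefSeq gene order, lay at 35.07, 49.9 and 35.6 CPM in control and 13.7, 20.3 and 17.3 CPM in csf1rDM (log2 fold change -1.23 ± 0.19 SE, adjusted p = 0.000645). The related spred1 (-0.91, adjusted p = 0.00292) and dusp5 (-0.65, adjusted p = 0.0151) had smaller differences. Larger but not past the adjusted p limit of edgeR were dusp4 (-1.99, adjusted p = 0.09585, mean 3.61 CPM) and spred2 (-1.06, adjusted p = 0.01025). The member spry2 was at 0.62, and 9 of the 10 were negative. The ERK phosphatase dusp6, also a standard ERK target, was at 302, 274 and 303 CPM in control and 236, 272 and 246 CPM in csf1rDM (log2 fold change -0.22 ± 0.08 SE, adjusted p = 0.0766). The transcription factor mafa lay at 314, 244 and 238 CPM in control and 122, 74.4 and 129 CPM in csf1rDM (log2 fold change -1.29 ± 0.23 SE, adjusted p = 0.00168). Of 13 tested AP-1 and EGR factors, which include the immediate early genes, 1 fell and 12 had a negative log2 fold change. The one that fell, fosl1, lay at 13.1, 15.6 and 10.6 CPM in control and 3.44, 6.67 and 7.70 CPM in csf1rDM (log2 fold change -1.14 ± 0.26 SE, adjusted p = 0.00801), and its call was lost with any library but csf1rDM replicate 3 left out (-1.38 to -0.87), in the fit of 50 hpf alone and with the muscle covariate. The related fosl2 was higher in all csf1rDM libraries but under the fold limit (0.69, adjusted p = 0.00308). The egr1 transcript lay at 298, 646 and 187 CPM in control and 81.8, 233 and 189.9 CPM in csf1rDM and fos at 76.6, 211 and 39.9 CPM in control and 29.3, 85.4 and 69.7 CPM in csf1rDM, with overlapping groups and adjusted p of 0.0727 and 0.303. The fall of etv4 and etv5b was already present at 28 hpf, at -3.29 and -3.10.

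A further group that fell was the serine and mitochondrial folate route, which makes serine from a glycolytic intermediate and passes its carbon into nucleotide synthesis. Of 7 enzymes of this route 4 fell and 0 rose. The first enzyme phgdh lay at 52.5, 84.5 and 81.6 CPM in control and 14.5, 4.66 and 5.19 CPM in csf1rDM (ENSDARG00000001873, log2 fold change -3.18 ± 0.38 SE, adjusted p = 0.000111), and the second, psat1, at 49.8, 60.3 and 63.0 CPM in control and 16.7, 9.17 and 12.1 CPM in csf1rDM (log2 fold change -2.19 ± 0.26 SE, adjusted p = 8.30e-05). In the mitochondrion, shmt2 lay at 45.01, 43.1 and 47.3 CPM in control and 8.37, 19.1 and 15.6 CPM in csf1rDM (log2 fold change -1.65 ± 0.23 SE, adjusted p = 0.00037) and mthfd1l at 32.5, 24.5 and 33.1 CPM in control and 1.67, 3.7 and 6.52 CPM in csf1rDM (log2 fold change -2.90 ± 0.38 SE, adjusted p = 0.000202). All csf1rDM libraries were below all control libraries in these 4 genes, as in every gene that passed as lower. The other tested enzymes of this group did not pass: psph was at -0.45 (adjusted p = 0.126), mthfd2 at 126, 159 and 174 CPM in control and 169.8, 186 and 142 CPM in csf1rDM (log2 fold change 0.11 ± 0.12 SE, adjusted p = 0.58) and aldh1l2 at -0.35 (adjusted p = 0.245).

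Of 5 cytosolic folate enzymes 0 passed (1 at an adjusted p under 0.05 by edgeR), among them shmt1 at -0.50 ± 0.09 SE. Across the wider list of purine, pyrimidine and one-carbon synthesis 6 of 36 fell, the remaining ones being atic (-1.07) of purine and umps (-1.05) of pyrimidine synthesis, the former not without csf1rDM replicate 3 (-0.92) and the latter not under either other scaling, with a median of -0.51. At 28 hpf 5 of the 36 passed as lower, with a median of -0.50. Glutamine synthetase glul, chosen after its values were seen, was the more abundant of 2 IDs of that name and lay at 1770.3, 1628 and 1607 CPM in control and 312, 397 and 411 CPM in csf1rDM (log2 fold change -2.16 ± 0.25 SE, adjusted p = 7.71e-05). The glycolytic list had a median of -0.04, and in it 1 of 41 fell and 2 rose (7.32%, against 5.33% of all tested genes).

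**Figure D3:**
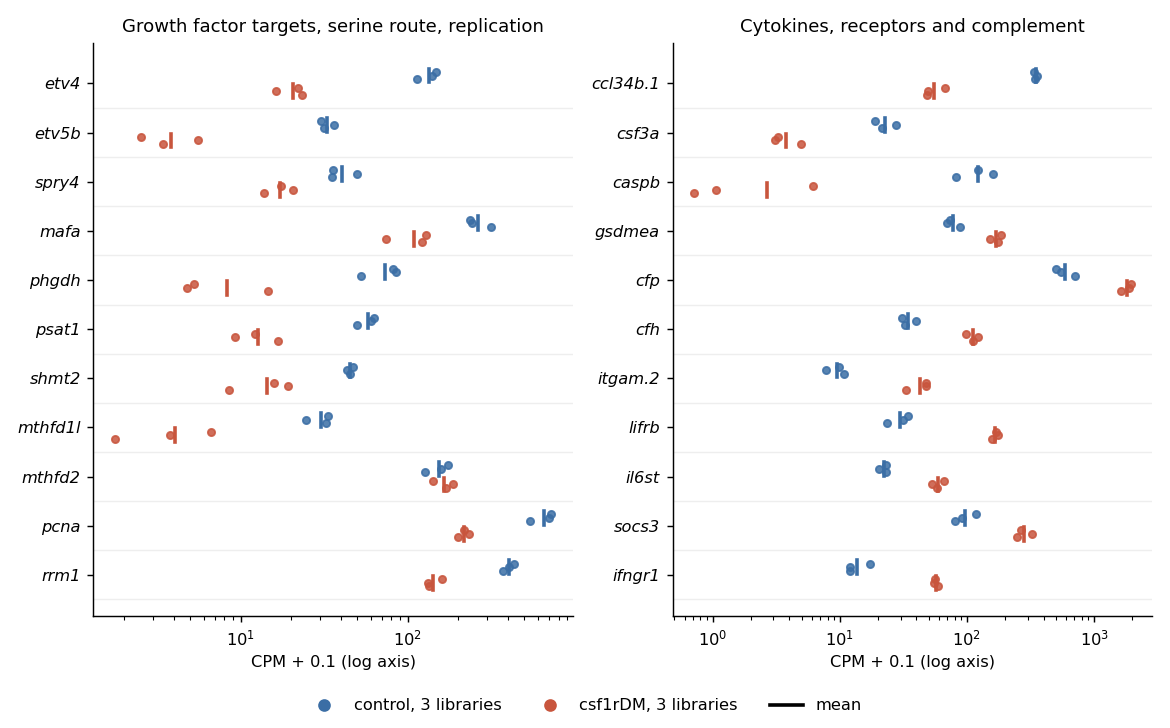
CPM plus 0.1 (horizontal log axis) of 22 genes in each library of 50 hpf, blue for the 3 control and red for the 3 csf1rDM libraries, with a vertical bar at each mean. At the left, etv4, phgdh and their neighbours were lower in every csf1rDM library while mthfd2 overlapped, and at the right, cfp, lifrb, il6st and ifngr1 were higher in every csf1rDM library.

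Larger complexes that cells in growth need showed small shifts that passed in few members. Of 71 ribosome biogenesis genes 1 passed, nip7, whose call was lost under both other scalings (-0.97 and -0.96) and without control replicate 2 or 3 or csf1rDM replicate 2 or 3 (-0.98 to -0.92), and the list median was -0.41. At 28 hpf 11 of the 71 passed as lower and the median was -0.75. The test of whether the genotype effect differed between stages passed for 0 of the 71. Of 51 proteasome genes 0 passed by edgeR or DESeq2, although 36 had an unadjusted p under 0.05 and 48 a negative log2 fold change, with a median of -0.39. Of 95 nuclear genes of oxidative phosphorylation 0 passed by the main test of edgeR or by DESeq2 and 1 was called higher by the newer quasi-likelihood method of edgeR, 53 had an unadjusted p under 0.05 and the median was -0.32. Of 22 tRNA synthetases 0 passed by either tool (1 without csf1rDM replicate 3), 18 had an unadjusted p under 0.05 and the median was -0.44. These medians lie below the -0.02 of all genes. Among all 16429 tested genes, 5274 had an unadjusted p under 0.05.

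The 37 cytosolic chaperones and chaperonin subunits had a median of -0.35 with 0 calls by the main test of edgeR, 1 lower by its newer quasi-likelihood method, 1 lower by DESeq2 and 20 at an unadjusted p under 0.05. Of 85 splicing factors and 73 mitochondrial ribosomal genes 1 each fell, snrpd3 (-1.08) and mrpl9 (-1.07), the latter not without csf1rDM replicate 1 (-0.98), and the list medians were -0.36 and -0.36. Cytosolic ribosomal proteins had a median of -0.09, with 0 of 79 called by edgeR or DESeq2 and 9 at an unadjusted p under 0.05. The 13 genes of the mitochondrial genome had a median of -0.12 with 0 calls by either tool and 4 at an unadjusted p under 0.05. Of 51 nuclear pore and transport genes 4 fell, among them nup37 at 54.8, 64.9 and 74.9 CPM in control and 22.1, 19.8 and 25.8 CPM in csf1rDM (log2 fold change -1.52 ± 0.16 SE, adjusted p = 4.78e-05) and the importin kpna2, which also serves the spindle, at 332, 319.6 and 338 CPM in control and 124, 111 and 164 CPM in csf1rDM (log2 fold change -1.31 ± 0.16 SE, adjusted p = 0.000121).

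Among genes that rose were receptors that sense cytokines. Of 5 tested receptors of the interleukin-6 family 3 rose. The leukaemia inhibitory factor receptor lifrb lay at 23.3, 31.3 and 34.5 CPM in control and 157, 176 and 169.6 CPM in csf1rDM (ENSDARG00000039863, log2 fold change 2.49 ± 0.18 SE, adjusted p = 2.03e-06), and the shared signalling chain il6st at 23.1, 20.05 and 23.2 CPM in control and 57.8, 52.8 and 65.5 CPM in csf1rDM (log2 fold change 1.41 ± 0.20 SE, adjusted p = 0.000392). Neither gene overlapped between genotypes, as was so for all genes that passed. The granulocyte colony-stimulating factor receptor csf3r lay at 116, 74.0 and 78.8 CPM in control and 170.3, 182 and 259 CPM in csf1rDM (log2 fold change 1.19 ± 0.19 SE, adjusted p = 0.00073), and without csf1rDM replicate 3 its log2 fold change was 0.96 and it no longer passed. The gene is also on the neutrophil marker list, of which 2 of 8 tested members rose and 0 fell, and whose summed level was higher in all csf1rDM libraries; the part of neutrophil RNA was not tested. The csf3r ligand csf3a moved the other way from csf3r, at 21.2, 27.7 and 18.9 CPM in control and 4.85, 2.98 and 3.19 CPM in csf1rDM (log2 fold change -2.63 ± 0.25 SE, adjusted p = 1.89e-05). The suppressor socs3, which is induced by and restrains this receptor family, lay at 80.6, 90.8 and 117 CPM in control and 249, 325 and 266 CPM in csf1rDM (log2 fold change 1.54 ± 0.14 SE, adjusted p = 1.42e-05). The il6r transcript was at 0.45 (adjusted p = 0.0107).

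The interferon gamma receptor chain ifngr1 lay at 11.9, 12.01 and 17.1 CPM in control and 59.0, 54.7 and 56.1 CPM in csf1rDM (log2 fold change 2.05 ± 0.21 SE, adjusted p = 3.81e-05), while its partner chain ifngr2 was at -0.05. Of 30 interferon response genes 1 rose, stat2 (1.51), and the list median was 0.09. Of the 54 tested members of a list of chemokines, cytokines and receptors, which does not hold lifrb or ccl34b.9, 4 rose, 2 fell and the median was 0.04. The chemokine gene ccl34b.9 rose at a low level, at 0.250, 0.431 and 0.192 CPM in control and 4.14, 6.43 and 2.59 CPM in csf1rDM. The chemokine ccl34b.1 had the clearest fall, at 342, 358 and 338 CPM in control and 48.2, 49.5 and 67.2 CPM in csf1rDM (log2 fold change -2.65 ± 0.19 SE, adjusted p = 1.91e-06), and the chemokine receptor ccr12b.2 rose, at 73.8, 96.5 and 108 CPM in control and 222, 261 and 191 CPM in csf1rDM (log2 fold change 1.27 ± 0.15 SE, adjusted p = 9.69e-05). The related chemokine gene ccl34a.4 did not pass, at -0.33. Both genes that passed separated the genotypes in all libraries, as did every gene past the thresholds.

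Complement genes rose where they changed. Of 19 tested, 4 rose and 0 fell, with a median of 0.46. Properdin cfp, which stabilises the convertase of the alternative pathway, lay at 709.8, 546 and 499 CPM in control and 1624, 1897 and 1938 CPM in csf1rDM (ENSDARG00000094451, log2 fold change 1.64 ± 0.18 SE, adjusted p = 6.36e-05), and factor H cfh, which restrains it, at 32.5, 39.4 and 30.8 CPM in control and 112, 122 and 99.0 CPM in csf1rDM (log2 fold change 1.70 ± 0.16 SE, adjusted p = 2.41e-05). The cfh-like gene cfhl1 rose at low level (1.87), a call lost with any one library left out (1.76 to 1.98), and the integrin chain itgam.2, part of a complement receptor, lay at 10.8, 7.75 and 9.66 CPM in control and 33.0, 47.6 and 47.2 CPM in csf1rDM (log2 fold change 2.18 ± 0.19 SE, adjusted p = 1.07e-05). Of the 3 C1q chains of the classical pathway 0 passed (1 at an adjusted p under 0.05 by edgeR), with log2 fold changes of -0.11 to 0.46.

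Receptors for microbial patterns went both ways. Of 29 scavenger and pattern recognition receptors 5 rose and 2 fell. The toll-like receptor tlr18 lay at 165, 139.7 and 156 CPM in control and 317, 310.4 and 313 CPM in csf1rDM (log2 fold change 1.03 ± 0.09 SE, adjusted p = 7.17e-06), and tlr21 at 102, 87.5 and 89.8 CPM in control and 22.1, 26.1 and 19.7 CPM in csf1rDM (log2 fold change -2.04 ± 0.17 SE, adjusted p = 8.40e-06). The tlr18 call was lost without control replicate 2 (0.94). The scavenger receptor scarf1 rose (1.21). The mannose receptor gene mrc1 passed as lower at 219, 143 and 153 CPM in control and 75.4, 66.7 and 107 CPM in csf1rDM (log2 fold change -1.04 ± 0.20 SE, adjusted p = 0.00258), but not under DESeq2 size factors, upper-quartile scaling, the muscle covariate or the fit of 50 hpf alone, nor without control replicate 1 (-0.87) or csf1rDM replicate 1 (-0.98) or 2 (-0.90). The related mrc1b was at 0.65 and marco at 0.63. Among inflammasome genes, the caspase caspb lay at 82.0, 159.8 and 121 CPM in control and 0.617, 0.965 and 6.07 CPM in csf1rDM (ENSDARG00000052039, log2 fold change -5.52 ± 0.57 SE, adjusted p = 3.92e-05), while the gasdermin gsdmea, which forms pores when cleaved, lay at 88.4, 69.4 and 73.4 CPM in control and 174, 152 and 184 CPM in csf1rDM (log2 fold change 1.14 ± 0.14 SE, adjusted p = 0.000101) and the adaptor pycard was at 0.02. The caspb groups were the farthest apart of these genes.

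Antigen presentation genes held the most extreme rise. The class I gene mhc1lda (ENSDARG00000023203) lay at 0.0625, 0.0957 and 0.064 CPM in control and 119, 129 and 99.3 CPM in csf1rDM, with 1 to 2 counts in each control library, which is at least 664-fold higher in csf1rDM against a floor of 3 counts per library. Of 27 MHC and antigen presentation genes 2 rose and 2 fell. The other one that rose, mhc2dab (1.22), lost its call without any one control library or csf1rDM replicate 2 (lowest 0.99). Those that fell were cd74a (adjusted p = 0.00144), with the values given above for macrophage markers, and the peptide loading factor tapbp.1 at 26.1, 33.8 and 33.8 CPM in control and 13.8, 15.8 and 9.56 CPM in csf1rDM (log2 fold change -1.26 ± 0.21 SE, adjusted p = 0.00119). Without control replicate 3 cd74a no longer passed (adjusted p = 0.0113), and without csf1rDM replicate 3 the list had 3 falls. The beta-2 microglobulin gene b2ml, the light chain of class I molecules, was at 0.32. MHC genes of zebrafish differ in content between haplotypes, and the haplotypes of these pools were not given, so genotype and haplotype cannot be told apart. Another 3 IDs, with no symbol, were at the floor in csf1rDM and had control means of 33.7, 26.1 and 20.8 CPM. The neighbourhood of the mutated genes was read for the same reason. Of 15 tested genes among the 50 nearest to csf1ra in the RefSeq gene order, 2 fell, cd74a and the centromere gene cenpu (-1.44), and of 13 near csf1rb 1 fell, spry4, against 3.04% of all tested genes as lower. The cenpu call was lost without control replicate 2 or 3 (highest -1.14) and in the fit of 50 hpf alone. Genotype and linked sequence near the mutated genes cannot be told apart.

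In the digestive and engulfing machinery of macrophages, members lay on both sides of 0. Log2 fold changes ran from -0.85 to 1.54 for lysosomal genes and from -0.81 to 0.95 for cathepsins. Of 55 lysosomal hydrolases and membrane proteins, 15 cathepsins and 25 V-ATPase subunits 0 passed by edgeR or DESeq2, with 22, 9 and 9 at an unadjusted p under 0.05, and the medians were 0.06, 0.10 and -0.10. Without csf1rDM replicate 1, 1 lysosomal gene passed as lower. Of 28 engulfment genes 1 rose and 1 fell (7.14%, against 5.33% of all tested genes). The phosphatidylserine-binding anxa5b lay at 5.38, 6.51 and 3.77 CPM in control and 22.3, 34.5 and 38.2 CPM in csf1rDM (log2 fold change 2.59 ± 0.24 SE, adjusted p = 1.56e-05). The integrin itgb5 was the member that fell (-1.07), and its adjusted p rose above 0.01 in each of the 6 fits without 1 library (log2 fold changes -1.15 to -1.01). The engulfment adaptor elmo1 was at 948, 961 and 1033 CPM in control and 561, 591 and 583 CPM in csf1rDM (log2 fold change -0.76 ± 0.05 SE, adjusted p = 1.54e-06), a difference apart in all libraries but under the fold limit.

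In lipid handling the endothelial-type lipase lipg, which cleaves phospholipids of lipoproteins, lay at 38.4, 38.3 and 41.6 CPM in control and 2.82, 0.0804 and 0.815 CPM in csf1rDM (ENSDARG00000031044, log2 fold change -5.02 ± 0.70 SE, adjusted p = 0.000309), and the hormone-sensitive lipase lipea at 12.3, 11.6 and 11.07 CPM in control and 32.7, 23.1 and 29.9 CPM in csf1rDM (log2 fold change 1.29 ± 0.19 SE, adjusted p = 0.000388). The apolipoprotein apoeb was at 271, 237 and 167 CPM in control and 139, 85.7 and 95.4 CPM in csf1rDM (log2 fold change -1.08 ± 0.70 SE, adjusted p = 0.326) and the cholesterol exporter abca1 at 247, 117 and 126 CPM in control and 377, 189.8 and 473 CPM in csf1rDM (log2 fold change 1.08 ± 0.34 SE, adjusted p = 0.0393), and neither passed in the main fit. Of the alternatives, abca1 passed as higher without control replicate 1, without csf1rDM replicate 2 and with the muscle covariate. Of 31 genes of lipid efflux and lipolysis 1 rose and 2 fell (9.68%, against 5.33% of all tested genes). The other fall was the droplet coat gene plin2 (-1.003), which did not pass under either other scaling (-0.95 and -0.94) or without control replicate 2 (-0.92) or csf1rDM replicate 3 (-0.88). Of 25 iron and heme genes 0 passed by the main test of edgeR or by DESeq2, 1 was called higher by the newer quasi-likelihood method and 1 lower without csf1rDM replicate 1, with 11 at an unadjusted p under 0.05 and a median of 0.27. Of 62 semaphorins, plexins and guidance receptors 0 passed at the main setting of edgeR and 2 rose and 1 fell by DESeq2, with 15 at an unadjusted p under 0.05 and a median of 0.42, which was 0.04 without csf1rDM replicate 1. The newer quasi-likelihood method of edgeR called 3 higher and 1 lower.

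Adhesion genes changed one by one. The integrin beta chain itgb1 lay at 192, 138 and 153 CPM in control and 55.9, 40.5 and 57.3 CPM in csf1rDM (log2 fold change -1.65 ± 0.22 SE, adjusted p = 0.00022), and the collagen-binding alpha chain itga1 at 11.2, 8.71 and 4.93 CPM in control and 30.4, 25.2 and 25.8 CPM in csf1rDM (log2 fold change 1.71 ± 0.24 SE, adjusted p = 0.00037). The leukocyte integrin chain itgb2 was at 0.10, and 2 of 28 integrins rose and 2 fell (14.3%, against 5.33% of all tested genes). The actin regulator abi3a, at 229, 253 and 263 CPM in control and 116, 128 and 122 CPM in csf1rDM (log2 fold change -1.03 ± 0.08 SE, adjusted p = 4.21e-06), lost its call under both other scalings (-0.98 and -0.97) and without csf1rDM replicate 1 (-0.99). Matrix genes rose in 4 of 43 cases (9.3%, against 2.29% of all tested genes) and fell in 0: the matrix adaptor tgfbi lay at 551, 617 and 566 CPM in control and 1172, 1367 and 1188 CPM in csf1rDM (log2 fold change 1.104 ± 0.08 SE, adjusted p = 3.55e-06) and the protease inhibitor timp2 at 71.6, 86.9 and 90.6 CPM in control and 184, 259.8 and 174 CPM in csf1rDM (log2 fold change 1.31 ± 0.15 SE, adjusted p = 6.06e-05). The others, adam17 (1.05) and fn1 (1.87), each lost the call without control replicate 2 or 3 or csf1rDM replicate 3 (lowest 0.95 and 1.53). Of 28 tested epithelial genes 2 rose and 1 fell (10.7%, against 5.33% of all tested genes). In this list 9 had a negative log2 fold change, with a median of 0.44 that became 0.70 without control replicate 1, 0.24 without control replicate 3 and 0.76 without csf1rDM replicate 2. The adhesion molecule cdh1 lay at 23.6, 23.6 and 22.5 CPM in control and 42.7, 56.0 and 52.1 CPM in csf1rDM (log2 fold change 1.11 ± 0.12 SE, adjusted p = 6.24e-05) and the keratin krt8 at 174, 193 and 171 CPM in control and 381, 455 and 340.5 CPM in csf1rDM (log2 fold change 1.13 ± 0.10 SE, adjusted p = 1.13e-05), whereas the protease inhibitor spint1a was the member that fell (-2.03, adjusted p = 0.00669), a call lost with any library but csf1rDM replicate 1 left out (-2.37 to -1.63), with the muscle covariate and in the fit of 50 hpf alone. Of defining keratinocyte markers, krt4 overlapped between genotypes, krt5 lay at 14.9, 0.957 and 0.704 CPM in control and 0.441, 0 and 0.519 CPM in csf1rDM (adjusted p = 0.0667) and the epithelial adhesion gene epcam reached at most 4.52 CPM. The part of other cells in these rises was not tested.

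Of the genes with a symbol of their own and at least 10 CPM, the largest rises after mhc1lda included the coagulation factor f5 at 3.56, 1.67 and 0.256 CPM in control and 126, 84.2 and 85.3 CPM in csf1rDM (ENSDARG00000055705, log2 fold change 5.74 ± 0.57 SE, adjusted p = 2.76e-05). The secretory calcium-binding phosphoprotein gene scpp8, the other riser of the neutrophil marker list, lay at 1.38, 1.53 and 0.768 CPM in control and 32.9, 42.4 and 25.04 CPM in csf1rDM (log2 fold change 4.74 ± 0.32 SE, adjusted p = 1.43e-06), and the water and glycerol channel aqp3 at 2.75, 4.16 and 4.35 CPM in control and 47.4, 53.6 and 46.2 CPM in csf1rDM (log2 fold change 3.70 ± 0.51 SE, adjusted p = 0.000279). The matrix genes ecm1b (3.35) and nid2b (3.21) and the monooxygenase-like moxd1 (2.75) also belonged to the 12 largest rises. Their control libraries were all below their csf1rDM libraries, by selection. Another 3 members have only clone-based names, si:ch211-42i6.2 (6.16), si:ch211-165i18.2 (3.35) and the one with ID ENSDARG00000097726 (3.33), which carry no functional annotation in the symbol table.

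The largest falls, besides those of caspb, lipg, phgdh and etv5b, included the transglutaminase-like tgm2l at 249, 232 and 305 CPM in control and 18.9, 9.49 and 18.4 CPM in csf1rDM (log2 fold change -4.07 ± 0.45 SE, adjusted p = 6.01e-05). The translation-linked gene bzw2 lay at 349, 293 and 297 CPM in control and 23.6, 38.9 and 28.0 CPM in csf1rDM (ENSDARG00000035918, log2 fold change -3.37 ± 0.20 SE, adjusted p = 9.75e-07). The mitochondrial outer membrane channel vdac1 lay at 38.57, 42.5 and 55.2 CPM in control and 3.26, 4.58 and 4.67 CPM in csf1rDM (log2 fold change -3.44 ± 0.38 SE, adjusted p = 6.12e-05), and the glutathione transferase gsta.1 at 14.4, 29.4 and 23.0 CPM in control and 1.32, 1.45 and 0.815 CPM in csf1rDM (log2 fold change -4.22 ± 0.36 SE, adjusted p = 9.40e-06). The other 4 of the 12 have clone-based names, the largest being si:dkey-23a13.11 (-6.19). These 4 named genes were lower already at 28 hpf, bzw2 at -2.74, tgm2l at -4.16, vdac1 at -2.75 and gsta.1 at -3.29 as log2 fold changes.

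**Figure D4:**
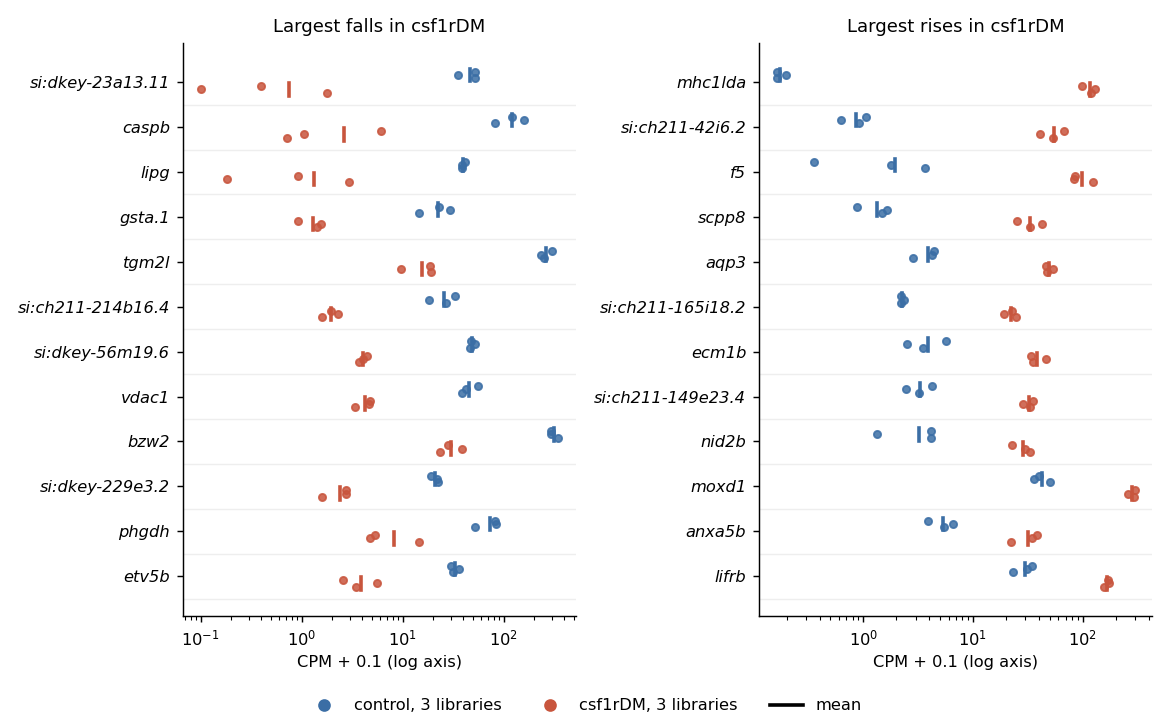
CPM plus 0.1 (horizontal log axis) of the 12 genes with the largest falls and the 12 with the largest rises among genes past the thresholds with at least 10 CPM, blue for the 3 control and red for the 3 csf1rDM libraries, with a vertical bar at each mean. These genes were chosen for not overlapping, and csf1rDM libraries are more scattered for the lowest values, such as those of caspb and lipg.

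Abundant genes were named apart from the largest changes. The clotting transglutaminase f13a1b, a macrophage product, lay at 1211, 1540.0 and 1463 CPM in control and 3353, 3901 and 3259 CPM in csf1rDM (log2 fold change 1.32 ± 0.08 SE, adjusted p = 1.04e-06), and the olfactomedin-like gene olmf4l1 at 1017, 1165 and 1109 CPM in control and 2377, 2736 and 2275 CPM in csf1rDM (log2 fold change 1.17 ± 0.07 SE, adjusted p = 9.95e-07). The C1q-like secreted gene c1ql1 lay at 641, 691 and 739 CPM in control and 1643, 2156 and 1780.5 CPM in csf1rDM (log2 fold change 1.43 ± 0.09 SE, adjusted p = 9.95e-07). The amine oxidase aoc3 (1.46), the surfactant protein homologue sftpbb (1.78), the membrane gene ms4a17a.8 (1.45) and the calcium pump gene atp2b4 (1.05) also belonged to that set. The atp2b4 call was lost without control replicate 2 or 3 or csf1rDM replicate 3 (lowest 0.91). Among abundant genes that fell, the linker histone histh1l1 lay at 511, 638 and 536 CPM in control and 155, 247 and 228 CPM in csf1rDM (log2 fold change -1.42 ± 0.15 SE, adjusted p = 4.85e-05), the nuclear protein anp32b at 281, 343 and 318 CPM in control and 144, 126 and 154 CPM in csf1rDM (log2 fold change -1.15 ± 0.10 SE, adjusted p = 9.48e-06) and the vesicle protein syngr2a at 347, 340.4 and 358 CPM in control and 80.8, 85.6 and 86.3 CPM in csf1rDM (log2 fold change -2.05 ± 0.08 SE, adjusted p = 2.96e-08). The cold-inducible RNA-binding gene cirbpa (-1.08) and the tubulin tuba5 (-1.01) lay near the fold limit. Without control replicate 3 neither passed (-0.96 and -0.97), and tuba5 also did not under either other scaling (-0.96 and -0.95) or without csf1rDM replicate 1 (-0.93).

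The stages were compared in 1 fit, since a gene past the thresholds at 50 hpf and not at 28 hpf need not differ between them. At 28 hpf 670 genes passed (4.08%). Of the 376 genes higher at 50 hpf, 364 had a positive log2 fold change at 28 hpf and 172 passed there in the same direction, and of the 499 lower genes 473 were negative and 172 passed. For 26 genes (0.158%) the interaction of genotype and stage passed, and at 50 hpf the log2 fold change was the more positive one in 15 of them and the more negative one in 11. It passed for 0 of the 54 replication genes, although their median was -0.78 at 28 hpf and -1.36 at 50 hpf, and for 1 of 35 cyclin and mitotic entry genes (median -0.45 at 28 hpf and -1.29 at 50 hpf), ccnb3, with an interaction of -1.33 and an adjusted p of 0.00648. The spindle list went from 0 of 35 to 16 of 35 passing, with medians of -0.14 and -0.96, and 0 of its genes passed the interaction. The kinetochore list had 0 of 36 at 28 hpf and 16 at 50 hpf, and 1 passed the interaction, the checkpoint kinase ttk (-1.18, adjusted p = 0.00631).

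The linker histone histh1l1 illustrates a difference that passed the interaction, -1.71 with an adjusted p of 0.00296: its log2 fold change was 0.29 at 28 hpf and -1.42 at 50 hpf. In the other direction, mfap4.11, of a family of secreted microfibril-associated genes typical of macrophages, was at 0.57 at 28 hpf and 2.44 at 50 hpf (interaction 1.88, adjusted p = 0.0016), with 28.7, 25.9 and 34.2 CPM in control and 137, 198 and 147 CPM in csf1rDM at 50 hpf. Muscle transcripts were also uneven among the csf1rDM libraries of 28 hpf, at 157 to 4767 CPM against 15.1 to 23.6 CPM in control, and with their sum as a covariate 4 genes passed the interaction.

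**Figure D5:**
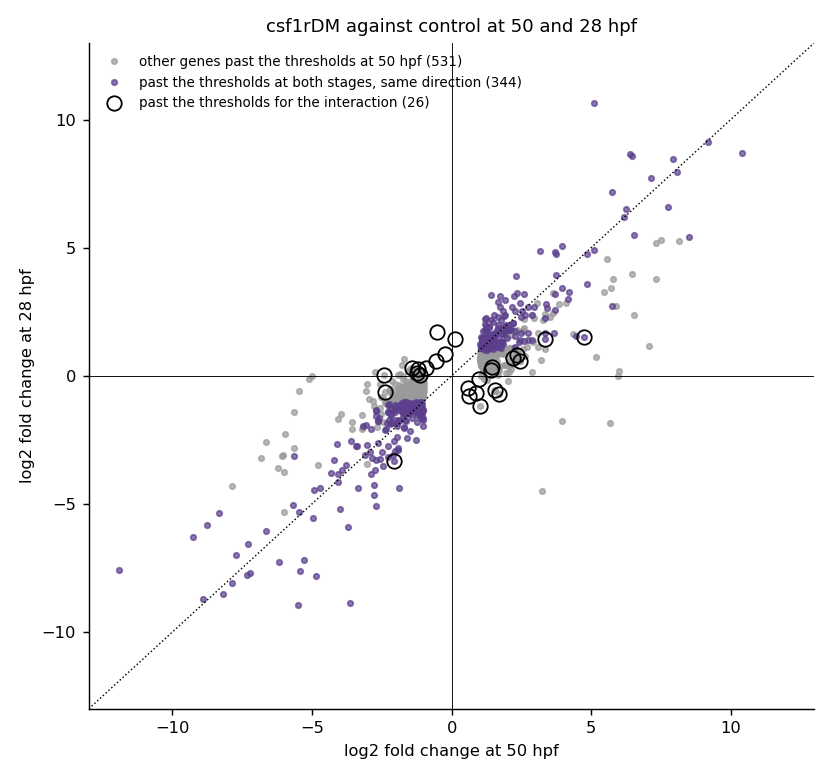
Log2 fold change of csf1rDM against control at 50 hpf (horizontal axis) and at 28 hpf (vertical axis) for the 875 genes past the thresholds at 50 hpf, with circles for the 26 genes past the thresholds of the interaction and a dotted line of equal change. Most points share their sign at both stages, and 344 of them passed at both.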

How the data were processed

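SMART-seq v4 chemistry amplified the RNA of mpeg-GFP+ cells, and read pairs were sequenced. The deposited table holds raw counts per Ensembl gene, with no normalisation by the authors. The submitters' processing notes name CASAVA 1.8, cutadapt, STAR 2.5.4b, Cufflinks 2.2.1, HTSeq 0.11.0 and edgeR, and the build GRCz10. The annotation release and the strand setting of the counting are not given in the sources used here, so values of overlapping genes and of near-identical paralogues are uncertain. Amplified cDNA without molecular identifiers means that depth covers counting error only.

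Counts were tested in R 4.3.3 with edgeR 4.0.16 (filterByExpr by group, TMM, estimateDisp, quasi-likelihood F test). A single fit took the 4 group means of all 12 libraries, with 8 residual degrees of freedom and no covariate. Benjamini-Hochberg adjustment ran over all 16429 tested genes of 35117, and the thresholds were an adjusted p under 0.01 and an absolute log2 fold change above 1. Errors are SE of the log2 fold change, derived from it and its F statistic, or SD over libraries. Replicate libraries differed by more than sampling noise, and no library was counted with another. The fit was tested on simulated data.

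Symbols came from a table of Ensembl names in lower case, which gave a symbol for 15072 tested IDs. Where the table had only a base symbol, the paralogue letter of a listed gene was dropped, so that several IDs can share a symbol. Members and lists were chosen with earlier results of these data known, and the grouping by complex or pathway step was made after the list results were seen. Named genes were the 12 largest rises and falls and the 10 most abundant genes in each direction that passed, had a symbol of 1 tested ID, reached at least 10 CPM and did not overlap between genotypes. Added to them were the 5 most positive and negative interactions, up to 4 largest and 2 most abundant members of each list, the mutated genes and mpeg1, and members named for their role or to complete a count, chosen after their values were seen. Alternatives covered scaling, filters, the replicate number as a block, the newer quasi-likelihood method of edgeR, DESeq2 1.42.0, the 6 libraries alone, each library left out and a muscle covariate chosen after seeing the data. Promoter motifs were planned and are not analysed here. Some items are not reported here.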

Additional observations from a re-analysis of the deposited data

Results flagged for a closer look

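Of the 26 genes whose genotype effect differed between 50 and 28 hpf by the interaction test of edgeR, 10 were named by the rule for the interaction, and a difference between stages is what drew attention to each. The count of 26 became 5 to 29 with a library left out and 4 with the muscle covariate.

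Among genes with a more positive log2 fold change at 50 hpf, scpp8 was at 1.52 at 28 hpf and 4.74 at 50 hpf (interaction 3.22, adjusted p = 0.00296), with 1.38, 1.53 and 0.768 CPM in control and 32.9, 42.4 and 25.04 CPM in csf1rDM at 50 hpf. The clone-named si:ch211-133n4.7 was at -0.70 at 28 hpf and 1.70 at 50 hpf (interaction 2.40, adjusted p = 5.10e-05), and another clone-named gene, ENSDARG00000097726, at 1.44 at 28 hpf and 3.33 at 50 hpf (interaction 1.90, adjusted p = 0.00954). The actin-severing scinlb was at -1.18 at 28 hpf and 1.02 at 50 hpf (interaction 2.2, adjusted p = 0.00102), and the macrophage-associated mfap4.11 at 0.57 at 28 hpf and 2.44 at 50 hpf (interaction 1.88, adjusted p = 0.0016). At 50 hpf scinlb lay at 76.6, 119.5 and 84.9 CPM in control and 189.9, 189.7 and 190.3 CPM in csf1rDM.

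Among genes with a more negative log2 fold change at 50 hpf, tmem269 was at 0.01 at 28 hpf and -2.42 at 50 hpf (interaction -2.43, adjusted p = 0.00954), and the calcium-binding cabp5b at -0.62 at 28 hpf and -2.38 at 50 hpf (interaction -1.76, adjusted p = 0.00631). The class II MHC gene mhc2d4b was at 1.72 at 28 hpf and -0.54 at 50 hpf (interaction -2.26, adjusted p = 5.23e-06), with 755, 796 and 756 CPM in control and 499.7, 544 and 543 CPM in csf1rDM at 50 hpf. The linker histone histh1l1 was at 0.29 at 28 hpf and -1.42 at 50 hpf (interaction -1.71, adjusted p = 0.00296). The matrix proteoglycan lum was at 0.28 at 28 hpf and -1.22 at 50 hpf (interaction -1.5, adjusted p = 0.00995), while the fibroblast list it belongs to summed to 309 to 564 CPM in control and 247 to 433 CPM in csf1rDM at 50 hpf. The part of fibroblast RNA in the values of lum was not tested.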

How the results depend on the processing

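The 875 genes past the thresholds at 50 hpf became 3263 at an adjusted p under 0.05 and 1818 at an adjusted p under 0.01, both without a fold limit, and 666 to 1195 under the other scalings, filters and tests. Leaving out each library gave 615 to 797. The fit of the 6 libraries of 50 hpf alone called 666 genes and kept 70.1% of the 875, and the fits without 1 library kept 67.5% to 78.4%. The 26 genes of the interaction became 57 without a filter, 51 with at least 10 counts in every library, 133 with DESeq2, 151 at an adjusted p under 0.05 without a fold limit, 4 with the muscle covariate, and 5 to 29 with a library left out. The transcript csf1ra kept a log2 fold change of -0.20 to -0.007 with a library left out, and csf1rb one of -1.01 to -0.61, which passed only without control replicate 2.

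Same-numbered libraries did not deviate together (correlations of 0.04, -0.12 and -0.36 over genes, which are not independent replicates), and the main fit used no pairing. With 3 libraries per genotype and uneven muscle transcripts, this check cannot exclude pairing. With the replicate block 783 genes passed at 50 hpf (318 higher, 465 lower) and 16 for the interaction, and csf1ra and csf1rb were at -0.09 and -0.83.

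List medians near 0 changed sign in places. Without csf1rDM replicate 1 the chemokine, cytokine and receptor median of 0.04 became -0.05. In that same fit the cytosolic ribosomal protein median of -0.09 became 0.01. The glycolytic median of -0.04 became 0.02 under upper-quartile scaling. The MHC median of -0.07 became 0.00298 under upper-quartile scaling, 0.20 with at least 10 counts in every library, and -0.0926 to 0.13 with a library left out, positive without control replicate 2 or any csf1rDM library. With a library left out the lysosomal median was -0.00492 to 0.0899 and the interferon median -0.000869 to 0.075, the former negative without control replicate 2 and the latter without csf1rDM replicate 2. The pigment median of 0.39 became -0.82 with at least 10 counts in every library, -0.12 in the fit of 50 hpf alone, -0.20 with the muscle covariate and -0.14 to 0.63 with a library left out, negative without csf1rDM replicate 1, and the lymphoid, mast and eosinophil median of 0.45 became -0.36 with at least 10 counts in every library. The cause was not tested. Of 151 named genes that passed, 42 lost the call under at least 1 alternative and none changed direction. A yolk and liver median could not be fitted with at least 10 counts in every library, since no gene was left. The interaction was not run on the 6 libraries of 50 hpf alone. Low counts limit genes under about 10 CPM.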
